A study of Mus musculus with 10 samples.

Results

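Dorsoventral identity in the spinal cord is encoded by a small set of homeodomain, paired-box and basic helix-loop-helix transcription factors, and 10 of them were followed here through the differentiation of mouse embryonic stem cells towards neuromesodermal progenitors (NMPs), the bipotent cells of the embryo's tail end that form spinal cord and somites. The 10 genes, Pax3, Pax6, Pax7, Irx3, Irx5, Olig2, Nkx6-1, Nkx6-2, Dbx1 and Dbx2, were picked by name from the 52459 gene symbols of the deposited count table, and each symbol had 1 row. By their textbook position, Pax3 and Pax7 were taken as dorsal, Pax6, Irx3, Irx5, Dbx1 and Dbx2 as broad or intermediate, and Olig2, Nkx6-1 and Nkx6-2 as ventral. Of the 10, 9 had enough counts to be tested, and Dbx1 did not.

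All cells were of 1 line, ES-Bruce4, with the C57BL/6 background and no mutation, and each of the 5 groups held 2 RNA-seq libraries of bulk RNA. The line was grown on inactivated embryo fibroblasts, which were depleted once before the start, and every culture received basic fibroblast growth factor at 10 ng/ml from day 0. The inhibitor CHIR99021, which activates Wnt signalling through Gsk3, was added at 5 µM on day 2; splitting followed on day 3. Group D2 was collected on day 2, D3 on day 3 and D6 on day 6. Group D7G was collected on day 7 after 24 h in 50 ng/ml Gdf11, a ligand of the transforming growth factor beta family that acts in the tail bud at the change from trunk to tail. Group D7 was collected on day 7 without Gdf11. The labels do not say whether D2 cells had already met CHIR99021, which of the libraries came from medium with vitamin A, or whether the 2 libraries of a group came from separate cultures, so the p-values measure only the spread between libraries, which may be technical.

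In the neural tube, Sonic hedgehog (Shh) from notochord and floor plate and Bmp and Wnt ligands from the roof plate set up opposing gradients. Shh signalling induces factors such as Olig2, Nkx6-1 and Nkx6-2 ventrally and restricts factors such as Irx3, Dbx1, Dbx2, Pax6 and Pax7 to more dorsal cells, and several of these proteins repress each other in pairs, which sharpens the borders between progenitor domains. Pax3 and Pax7 also mark dermomyotome and neural crest, Pax6 and Irx3 are used in the forebrain and elsewhere, and Olig2 is best known for motor neurons and oligodendrocytes.

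Libraries held between 31078950 and 33418015 counts and levels are given in CPM, the usual scaling of counts by library size. Libraries of a group correlated at 0.992 or higher in log CPM, and libraries of different groups at 0.987 or lower. The caudal markers that go with the NMP label were highest on D3 and lower on D6 and day 7, though above D2. The 12 caudal epiblast and NMP genes summed to between 198.8 and 204.9 CPM on D2, between 2139 and 2194 on D3, between 861.4 and 929.7 on D6, between 544.1 and 546.3 in D7G and between 547.2 and 559 in D7. Brachyury (T) averaged 0.919 ± 0.0892 CPM on D2, 232 ± 1.33 on D3, 41.7 ± 2.28 on D6, 29.3 ± 0.269 in D7G and 19.8 ± 0.676 in D7 (SD, n = 2 each), and Sox2 lay between 163 ± 5.45 CPM on D2 and 232 ± 4.04 in D7.

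The genes lie on 8 chromosomes in the deposited table (mm10). Irx3 (chr8:91798525-91802067, minus strand) and Irx5 (chr8:92357625-92376286, plus strand) are members of 1 Irx cluster, and Dbx1 (chr7:49631499-49636849) and Nkx6-2 (chr7:139579376-139582797) are far apart on chromosome 7, both on the minus strand. Pax3 (chr1:78101267-78197134), Pax7 (chr4:139737062-139833528), Dbx2 (chr15:95623563-95655960) and Nkx6-1 (chr5:101658139-101664996) are read from the minus strand, and Pax6 (chr2:105668900-105697364) and Olig2 (chr16:91225550-91228677) from the plus strand. The antisense gene Irx3os overlaps exons of Irx3 by 124 bases, and Inpp5a, on the opposite strand, overlaps exons of Nkx6-2 by 246 bases. The sources used here do not state whether counting used strand, so reads in those stretches cannot be assigned with certainty.

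Promoter windows of 300 bases, 250 before and 50 after the annotated start, were found in RefSeq (GRCm38.p6) for 8 of the 10 genes, and Pax3 and Irx5 had no entry. Below are the stretches upstream of the start that lie outside annotated exons, for Olig2 and Nkx6-2, whose RNA had fallen by D6, for Pax6, which fell and came back, and for Dbx1, the 1 window with a match to a searched motif. They cover chr16:91225300-91225456 (plus strand), chr7:139582798-139583047 (minus), chr2:105668646-105668895 (plus) and chr7:49636850-49637085 (minus), are written 5′ to 3′ on the gene's strand, and carry capitals only where a motif matched.
Olig2: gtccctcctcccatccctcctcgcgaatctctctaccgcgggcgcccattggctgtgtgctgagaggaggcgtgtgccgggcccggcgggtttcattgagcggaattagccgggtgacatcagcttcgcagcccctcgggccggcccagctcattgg
Nkx6-2: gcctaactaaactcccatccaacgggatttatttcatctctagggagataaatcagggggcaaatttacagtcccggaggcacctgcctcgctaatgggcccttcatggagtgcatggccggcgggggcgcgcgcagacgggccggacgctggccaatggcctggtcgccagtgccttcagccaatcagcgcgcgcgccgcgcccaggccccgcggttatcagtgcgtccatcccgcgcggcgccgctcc
Pax6: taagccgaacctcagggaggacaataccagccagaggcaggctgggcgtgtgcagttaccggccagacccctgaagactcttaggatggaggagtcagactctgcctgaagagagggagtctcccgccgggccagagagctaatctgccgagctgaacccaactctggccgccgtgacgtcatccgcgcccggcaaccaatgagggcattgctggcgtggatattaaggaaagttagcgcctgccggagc
Dbx1: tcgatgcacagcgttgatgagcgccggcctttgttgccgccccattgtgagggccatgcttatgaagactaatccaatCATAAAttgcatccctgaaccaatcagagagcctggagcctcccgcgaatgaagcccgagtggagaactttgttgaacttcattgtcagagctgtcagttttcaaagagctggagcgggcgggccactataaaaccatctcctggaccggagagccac
The share of G and C was 65% in the window of Olig2, 66.7% in that of Nkx6-2, 58.7% in that of Pax6 and 54% in that of Dbx1, against a median of 52.7% over all 32851 RefSeq windows, and a second Pax6 window, not printed, had 46.3%. Motifs were searched on both strands: GACCACCCA for Gli factors, GTCTAGAC for Smad proteins, CTTTGAT for Tcf and Lef factors, TTTATG for Cdx factors, CAGCTG for E-box proteins and TAATTA for homeodomain proteins, and no motif contains another. Only the Dbx1 window held a match, 1 copy of the Cdx letters on the reverse strand at 172 bases before the start, written CATAAA above, and a match is a description of letters, not of binding. Of all windows, 0.253% held the Gli letters, 0.213% the Smad letters, 3.73% the Tcf and Lef letters, 11.9% the Cdx letters, 16.3% the E-box letters and 5.29% the homeodomain letters.

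Across the course the most abundant gene of the set per kilobase was Olig2 on D2 and D3, and Irx3 on D6, D7G and D7. On D2 the other ventral genes, Nkx6-1 and Nkx6-2, averaged 0.459 and 1.69 CPM beside 53.7 CPM of Olig2. Which cells carried that level of Olig2 was not tested. From D2 to D3, 8 of the 9 tested genes passed the threshold (adjusted p under 0.05 by edgeR's quasi-likelihood test), 4 higher and 4 lower on D3, while 58.5% of the 18818 tested genes did so, 29.6% higher and 28.9% lower. Without D2 replicate 2 or D3 replicate 2, 5 members passed. On D6 against D3 all 9 tested genes passed, 6 higher and 3 lower, beside 65.7% of all genes (32.4% higher, 33.3% lower). On D7 against D6, 4 passed, all higher on D7, beside 36% of all genes (20.5% higher, 15.6% lower). In D7G against D7, 6 passed, 2 higher and 4 lower in D7G, beside 40.7% of all genes (22.5% higher, 18.2% lower). Without D7 replicate 2, fewer members and also fewer of all genes passed. In D7G against D6, 6 passed, 3 higher and 3 lower, beside 52.8% (30.6% higher, 22.2% lower). The median log2 change over the 9 genes was 0.00 on D3 against D2, 2.39 on D6 against D3, 0.24 on D7 against D6, -0.36 in D7G against D7 and -0.22 in D7G against D6, where the medians of all genes were 0.00, -0.01, 0.04, 0.02 and 0.06. With so many genes called at each step, a count of members, or of genes in the lists below, is read only beside these shares. The last 3 comparisons share libraries with each other, so their values are set side by side and not counted as separate evidence. In bulk RNA, fewer cells that express a gene and less of its RNA per cell cannot be told apart.

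**Figure D1:**
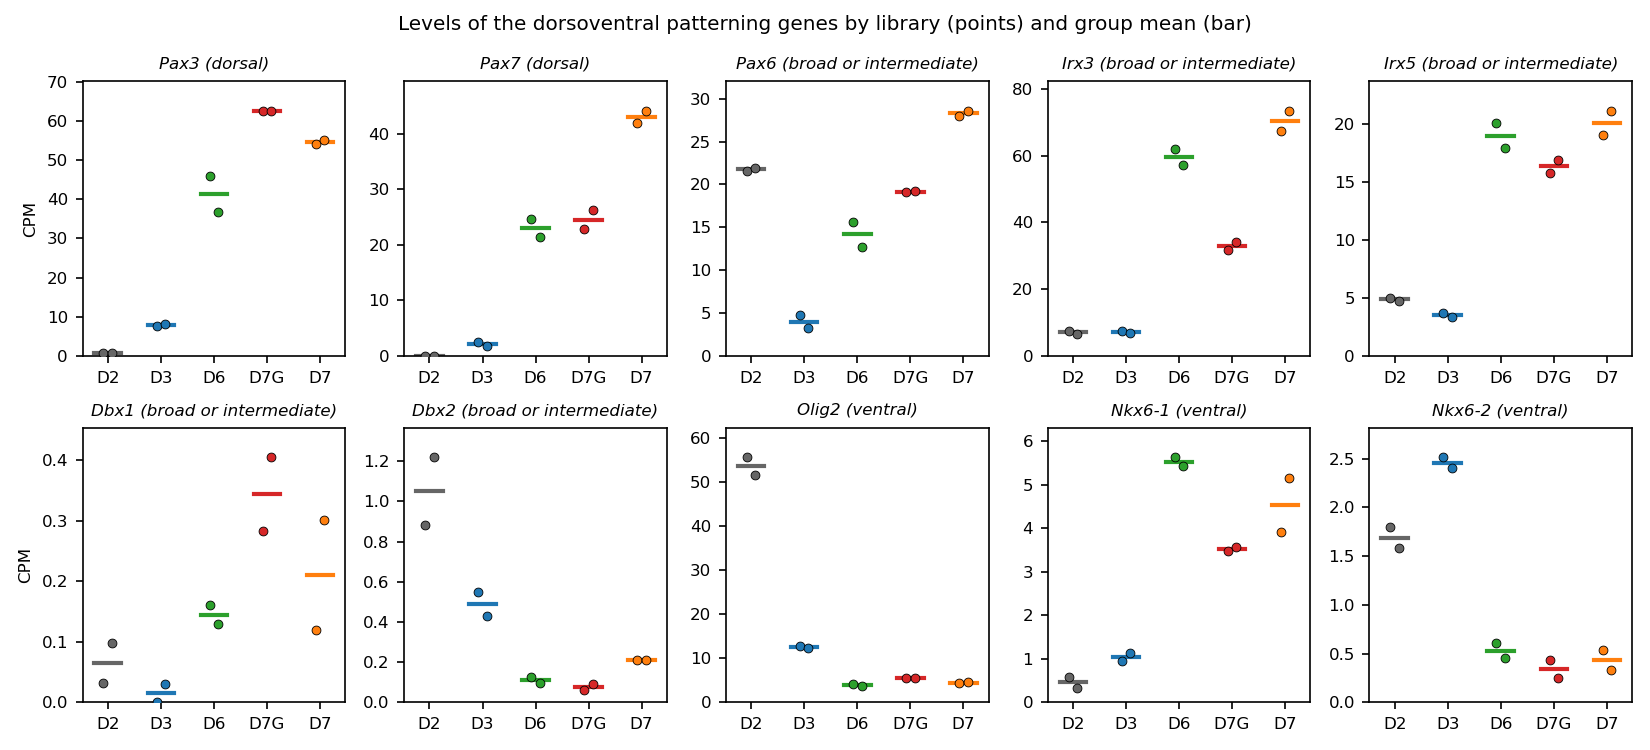
Level of each of the 10 genes in CPM (y axis, linear, its own scale per panel) in the 2 libraries of each group (points), with the group mean as a bar. Pax3, Pax7, Irx3, Irx5 and Nkx6-1 are at their lowest on D2 or D3 and high from D6, whereas Olig2 averages 53.7 CPM on D2 and under 6 CPM from D6.

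Pax3, a paired-box factor of the dorsal neural tube, dermomyotome and neural crest, was among the genes that rose over the whole course. It had 0.851 and 0.659 CPM on D2, 7.72 and 8.02 on D3, 45.9 and 36.6 on D6, 62.5 and 62.5 in D7G, and 54.1 and 55.0 in D7. Every library of a later day lay above every library of the day before, and the 2 D7G libraries lay above both D7 libraries. The log2 change was 3.37 ± 0.20 (SE) on D3 against D2 (adjusted p = 1.49e-11), 2.39 ± 0.09 on D6 against D3 (1.45e-14) and 0.40 ± 0.07 on D7 against D6 (2.12e-04), the last falling to 0.24 without D6 replicate 2. The further rise with Gdf11, 0.20 ± 0.07 in D7G against D7 (adjusted p = 0.0295), was not called by DESeq2 (0.0979), without the filter on low counts (0.132), or when either D7G, D7 or D3 library was left out (0.0621 to 0.170). Against D6, Pax3 was 0.60 ± 0.07 log2 higher in D7G (6.40e-07).

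Pax7, the paralogue of Pax3 with a narrower dorsal range, started from nearly nothing and parted from Pax3 under Gdf11. It had 82 and 56 counts on D3, against 2 and 1 counts on D2, a ratio at equal depth of 43.1 (95% interval 14.4 to 211, counting error only). In CPM it had 2.51 and 1.73 on D3, 24.7 and 21.4 on D6, 22.8 and 26.2 in D7G, and 41.9 and 44.1 in D7. The D7G libraries overlapped those of D6 and lay below both D7 libraries. Pax7 rose by 3.44 ± 0.13 log2 on D6 against D3 (adjusted p = 1.15e-14) and by 0.90 ± 0.08 on D7 against D6 (1.06e-07). In D7G it was lower than in D7 by a log2 change of -0.81 ± 0.08 (1.44e-07), and its log2 change against D6 was 0.09 ± 0.09 (0.421).

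Per kilobase of exon, Pax7 stood at 0.385 and 0.443 of Pax3 in the D7G libraries, against 0.817 and 0.847 in the D7 libraries. The ratio had been 0.0812 and 0.0528 on D2, 0.344 and 0.227 on D3 and 0.568 and 0.617 on D6. It was higher on each later untreated day in every library, and in D7G it was below that of D6.

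Markers of the other tissues that use Pax3 and Pax7 moved in the same samples. Of 12 somite and dermomyotome genes, 11 were tested, and 10 were higher and 0 lower on D6 than on D3, led by Meox1, a homeobox gene of the somite (7.26 ± 0.20 log2). Their summed level was 29.0 to 30.2 CPM on D2, 16.2 to 17.7 on D3, 142.5 to 176.2 on D6, 52.5 to 58.2 in D7G and 86.1 to 89.1 in D7. In D7G, 5 were lower and 1 higher than in D7, with Meox1 at -2.42 ± 0.15, Foxc2 at -1.86 ± 0.21, Dmrt2 at -1.32 ± 0.13 and Pax9 at -1.19 ± 0.12 log2. The 1 higher gene was no longer called without D7G replicate 2 or D7 replicate 2. In those D7G libraries Pax7 was lower than in D7 as well, and Pax3 was not.

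Neural crest genes went the other way under Gdf11. Of 10 tested, 7 were higher and 1 was lower in D7G than in D7, and their summed level was 189.2 to 192.5 CPM in D7G, against 113.0 to 116.1 CPM in D7. It was 79.2 to 86.7 CPM on D2, 94.3 to 104.0 on D3 and 69.4 to 74.0 on D6. The receptor gene Ngfr (1.77 ± 0.08), Ets1 (1.62 ± 0.08) and Tfap2b (1.29 ± 0.15) were higher, and Ednrb, an endothelin receptor gene, was lower (-0.94 ± 0.07). Sox9 (0.37 ± 0.11), Snai2 (0.36 ± 0.11) and Tfap2a (0.93 ± 0.19) were higher too, and the calls of Sox9 and Snai2 were each lost in 4 of 20 alternatives. Sox10 averaged 0.328 ± 0.156 CPM in D7G and 0.210 ± 0.0434 in D7, and Foxd3 0.656 ± 0.048 in D7G and 0.555 ± 0.0661 in D7 (SD, n = 2 each), while Foxd3, also used in pluripotent cells, had 15.7 ± 1.22 CPM on D2. The part of somite or crest cells in the values of Pax3 and Pax7 was not tested.

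Pax6, a paired-box and homeodomain factor spread over most of the ventricular zone except its most ventral end, dipped on D3 and recovered. It had 21.6 and 21.9 CPM on D2, 4.72 and 3.24 on D3, 15.7 and 12.7 on D6, 19.1 and 19.2 in D7G, and 28.0 and 28.6 in D7. The D3 libraries were the lowest of all and the D7 libraries the highest, with D7G between D6 and D7. The log2 change was -2.45 ± 0.12 on D3 against D2 (adjusted p = 9.54e-13), 1.83 ± 0.13 on D6 against D3 (1.18e-10) and 0.99 ± 0.09 on D7 against D6 (1.55e-07). In D7G, Pax6 was lower than in D7 (-0.56 ± 0.09, 4.65e-05) and higher than in D6 (0.43 ± 0.10, 0.00107, and 0.28 without D6 replicate 2). The midbrain and forebrain factor Otx2 averaged 0.876 ± 0.0611 CPM on D3, against 36.1 ± 0.772 CPM on D2 (SD, n = 2 each). Of 9 forebrain and midbrain genes, 7 were tested, and 2 were higher and 0 lower in D7G than in D7, of which the Otx2 call was lost without D7G replicate 1 (1 higher and 1 lower) or D7 replicate 1 (1 higher and 0 lower). Their sum was 44.1 to 46.1 CPM on D2, 13.9 to 15.3 on D3, 32.9 to 33.3 on D6, 37.5 to 40.6 in D7G and 33.8 to 38.4 in D7. Otx2 alone made up most of the D2 sum, so that sum does not stand for the list as a whole. Rax and Six3 were each under 1 CPM in every group. Whether anterior neural cells carried the D2 level of Pax6 was not tested.

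Irx3, an Iroquois homeodomain factor that covers the neural tube above the motor neuron domain, was the most abundant of the set per kilobase on D6, D7G and D7. It had 7.47 and 6.65 CPM on D2, 7.35 and 6.79 on D3, 62.0 and 57.2 on D6, 31.9 and 34.05 in D7G, and 67.5 and 73.4 in D7. The D2 and D3 libraries overlapped, and the D7G libraries lay far below those of both D6 and D7. The log2 change was 0.00 ± 0.11 on D3 against D2 (adjusted p = 0.990) and 3.07 ± 0.08 on D6 against D3 (2.86e-17). On D7 against D6 it was 0.24 ± 0.06 (0.00299), which was not called without D6 replicate 2 (0.18, adjusted p = 0.0613) or D7 replicate 2 (0.15, 0.137).

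Under Gdf11, Irx3 fell by 1.10 ± 0.06 on the log2 scale in D7G against D7 (adjusted p = 2.30e-11), and 234 of the 18818 genes had a larger fall. Against D6 the change in D7G was -0.85 ± 0.06 (6.24e-10). Irx3os, the antisense neighbour, had 158 counts in the 2 D7G libraries and 266 in the 2 D7 libraries. In the second deposited count table, built on Ensembl genes, Irx3 differed by -436 to -28 counts per library, and none of its calls changed there.

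Irx5, the linked Iroquois gene, had smaller log2 changes than Irx3 in each comparison other than D3 against D2. It had 4.98 and 4.78 CPM on D2, 3.74 and 3.39 on D3, 20.1 and 17.9 on D6, 15.8 and 16.9 in D7G, and 19.1 and 21.1 in D7. The D6 and D7 libraries overlapped, and the D7G libraries lay just below both. The fall on D3 against D2 was -0.45 ± 0.13 log2 (adjusted p = 0.00620), not called without D3 replicate 2 (0.0609), and the rise on D6 against D3 was 2.41 ± 0.10 (7.93e-14). On D7 against D6 the value was 0.08 ± 0.08 (0.464). In D7G, Irx5 was lower than in D7 (-0.30 ± 0.08, 0.00592), a call lost without D7 replicate 2 (-0.25, 0.0615). The log2 change against D6 was -0.22 ± 0.08 (0.0328), and this call was lost by DESeq2 (0.0950), with library totals for scaling (0.0710), and without D6 replicate 1 (0.291) or D7G replicate 1 (0.0558).

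Relative to Irx3, Irx5 stood at 0.438 and 0.439 per kilobase in the D7G libraries, against 0.250 and 0.254 in the D7 libraries. Of the other Irx genes, Irx2 was also lower in D7G than in D7 (-0.36 ± 0.08, adjusted p = 0.00160), with 16.7 ± 1.16 CPM in D7G and 21.4 ± 1.28 CPM in D7. For Irx1 the value was -0.24 ± 0.12 (0.118). Of the 3 tested Irx genes outside the set, 2 were higher on D3 than on D2, Irx1 (2.56 ± 0.19) and Irx2 (1.20 ± 0.11), and 0 were lower, while Irx3 did not pass the test and Irx5 was lower.

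Dbx1 and Dbx2, homeodomain factors of the intermediate domains that give interneurons, were close to the detection limit. Dbx1 had 1 and 3 counts on D2, 0 and 1 on D3, 5 and 4 on D6, 9 and 13 in D7G, and 4 and 10 in D7. Its libraries in D7G and D7 overlapped. The ratio at equal depth between D6 and D3 was 9.44 (95% interval 1.31 to 414, counting error only). With no filter on low counts its log2 change on D6 against D3 had an adjusted p of 0.0479, and none of the other comparisons was called.

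Dbx2 had 27 and 37 counts on D2, 18 and 14 on D3, 4 and 3 on D6, 2 and 3 in D7G, and 7 and 7 in D7. Both D3 libraries lay below those of D2, and both D6 libraries below those of D3. The fall was -1.09 ± 0.30 log2 on D3 against D2 (adjusted p = 0.00427) and -2.09 ± 0.50 on D6 against D3 (0.00100). The first call was lost by DESeq2 (0.131) and without D2 replicate 2 (0.0828) or D3 replicate 2 (0.0575). The D7G libraries lay below those of D7, with a log2 change of -1.38 ± 0.64 (0.0949), and at 5 and 14 counts in total such a difference cannot be resolved at this depth.

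Olig2, a basic helix-loop-helix factor of motor neuron and oligodendrocyte progenitors, had its highest level on D2, as Dbx2 did at far lower counts. It had 55.7 and 51.7 CPM on D2, 12.8 and 12.3 on D3, 4.12 and 3.74 on D6, 5.64 and 5.63 in D7G, and 4.43 and 4.61 in D7. Groups did not overlap, and both falls came before D7. The log2 change was -2.10 ± 0.07 on D3 against D2 (adjusted p = 1.82e-15) and -1.67 ± 0.10 on D6 against D3 (8.96e-12). On D7 against D6 it was 0.20 ± 0.12 (0.204).

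With Gdf11, Olig2 was 0.32 ± 0.11 log2 higher in D7G than in D7 (adjusted p = 0.0251). That call was lost by DESeq2 (0.0816), limma-voom (0.0540), without the filter on low counts (0.0712), with libraries of the 2 groups only (0.0755), and when any D7G or D7 library was left out (0.0816 to 0.139). Against D6 it was 0.52 ± 0.11 higher in D7G (7.11e-04), in every alternative tried.

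Nkx6-1, a homeodomain factor of the ventral neural tube and of pancreatic progenitors, rose up to D6, as the dorsal genes did, and was not called higher afterwards. It had 0.589 and 0.329 CPM on D2, 0.950 and 1.14 on D3, 5.63 and 5.42 on D6, 3.48 and 3.58 in D7G, and 3.92 and 5.15 in D7. The D6 libraries were the highest, and the D7 libraries differed more from each other than those of any other late group. The log2 change was 1.18 ± 0.33 on D3 against D2 (adjusted p = 0.00427), not called without D2 replicate 2 (0.82, 0.0758), and 2.40 ± 0.19 on D6 against D3 (1.14e-09). It was -0.29 ± 0.15 on D7 against D6 (0.140) and -0.36 ± 0.16 in D7G against D7 (0.0746). D7 replicates decided both: without D7 replicate 2 the first was called (-0.53, 0.0313), and without D7 replicate 1 the second (-0.56, 0.0176). In D7G, Nkx6-1 was lower than in D6 (-0.65 ± 0.15, 0.00143).

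Endoderm genes, which can accompany Nkx6-1 and Pax6, summed to 34.6 to 37.0 CPM on D2, 80.2 to 89.9 on D3, 108.0 to 117.4 on D6, 138.8 to 165.0 in D7G and 129.5 to 136.0 in D7. Of the 8 tested, 5 were higher and 1 was lower in D7G than in D7, and 3 were higher without D7G replicate 1 or D7 replicate 2. Their part in the level of Nkx6-1 was not tested.

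Nkx6-2, the close relative of Nkx6-1 that acts with it in ventral progenitors, was lower on D6 than on D3, where Nkx6-1 was higher. It had 55 and 48 counts on D2, 82 and 78 on D3, 19 and 14 on D6, 14 and 8 in D7G, and 18 and 11 in D7. In CPM the D7 libraries overlapped those of both D6 and D7G, and all 3 groups lay below D2. Its log2 change on D3 against D2 was 0.54 ± 0.21 (adjusted p = 0.0322). That call was lost by DESeq2 (0.220), in the second count table (0.26, 0.343), and when any D2 or D3 library was left out (0.0610 to 0.170). In that second table the count of Nkx6-2 differed by -18 and -14 on D3 and by -2 and -1 on D2. Nkx6-2 fell by 2.20 ± 0.26 log2 on D6 against D3 (3.36e-07), and it had -0.29 ± 0.37 on D7 against D6 (0.590) and -0.34 ± 0.41 in D7G against D7 (0.552).

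**Figure D2:**
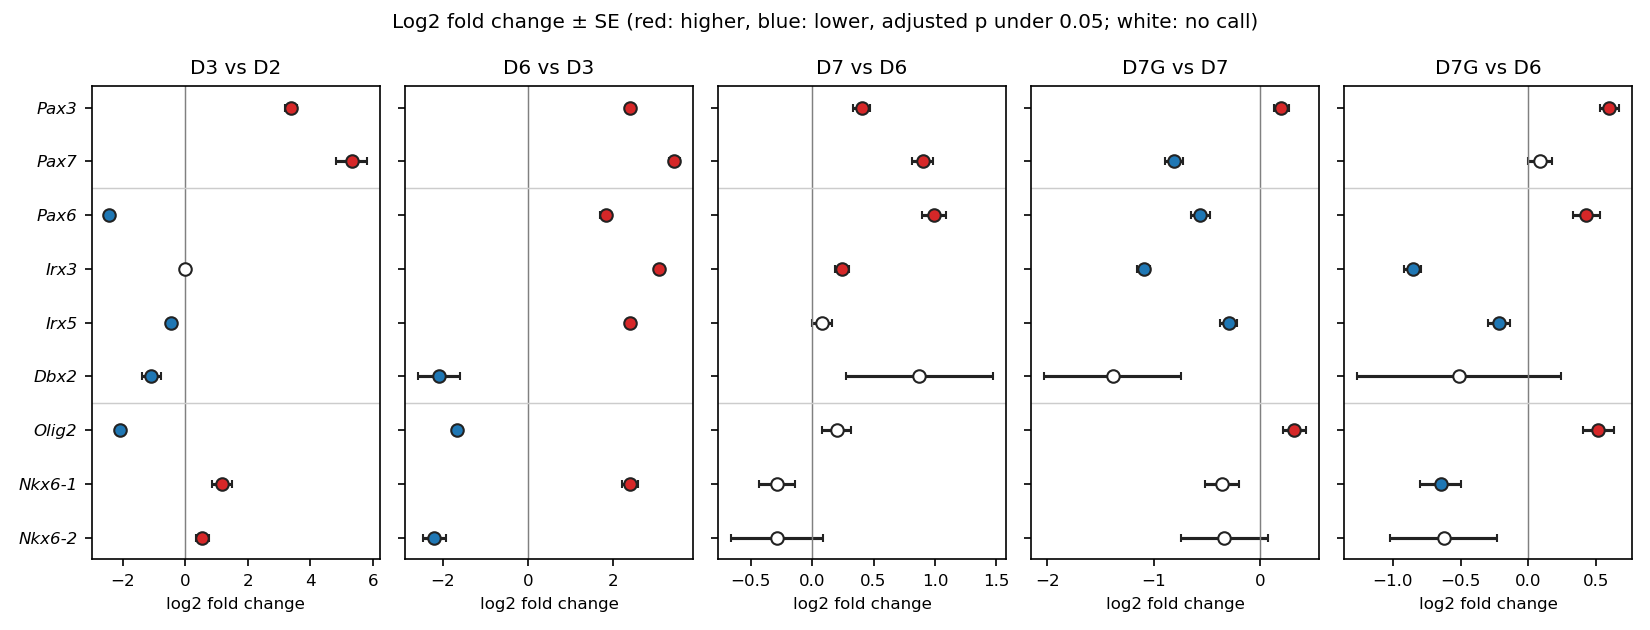
Log2 fold change with its SE (bars) for the 9 tested genes in each of the 5 comparisons, with genes ordered from dorsal to ventral and colour marking calls at an adjusted p under 0.05. The D3 against D2 value of Pax7 rests on 3 counts on D2 and depends on the prior count. In D7G against D7, Irx3, Pax7, Pax6 and Irx5 lie below 0, and Pax3 and Olig2 above it.

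Set side by side, neither the dorsal nor the ventral genes moved as 1 block. On D6 against D3 both dorsal genes were higher, while of the ventral genes Nkx6-1 was higher and Olig2 and Nkx6-2 were lower. In D7G against D7, Pax7 was lower (-0.81) and Pax3 was not (0.20), and of the ventral genes Olig2 had 0.32, Nkx6-1 -0.36 and Nkx6-2 -0.34. Nkx6-1 and Nkx6-2 were not called in this comparison. The calls of Pax3 and Olig2 were lost by DESeq2 and when any D7G or D7 library was left out. Opposite directions among the ventral genes are therefore not established there. All 3 intermediate genes above 1 CPM, Pax6, Irx3 and Irx5, were lower in D7G than in D7.

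Per kilobase of exon, the sum of the dorsal genes was 0.00621 and 0.00506 of that of the ventral genes on D2, 0.244 and 0.238 on D3, 3.06 and 2.73 on D6, 3.83 and 4.07 in D7G, and 4.75 and 4.43 in D7. The ventral sum was the larger in each D2 and D3 library and the dorsal sum in each later library. Olig2 alone made up most of the ventral sum on D2 (22.0 ± 1.14 CPM per kilobase) and on D3 (5.15 ± 0.13), and on D3 Nkx6-2 had 1.29 ± 0.04 and Nkx6-1 0.333 ± 0.043 (SD, n = 2 each). In D7G the ratio lay between those of D6 and D7. The ventral share of the set's summed level was 78.5% and 77.8% on D2, 53.0% and 54.7% on D3, 8.32% and 8.61% on D6, 10.1% and 9.48% in D7G, and 6.41% and 6.60% in D7. The broad or intermediate share, mostly Irx3, was 51.0% and 51.9% in D7G, against 63.2% and 64.1% in D7. The dorsal share was 38.8% and 38.6% in D7G, against 30.4% and 29.3% in D7. The dorsal sum itself was lower in D7G, at 13.984 and 14.585 CPM per kilobase, against 15.897 and 16.414 in D7. The ventral sums overlapped, with 3.655 and 3.579 in D7G and 3.349 and 3.705 in D7. The broad or intermediate sum was 18.384 and 19.597 in D7G, against 33.033 and 35.996 in D7. The larger dorsal and ventral shares in D7G are therefore not read as higher dorsal or ventral levels. These sums carry no test, and the exon length merges all isoforms, which lowers the level of genes with many, such as Pax6 with 11694 bases.

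**Figure D3:**
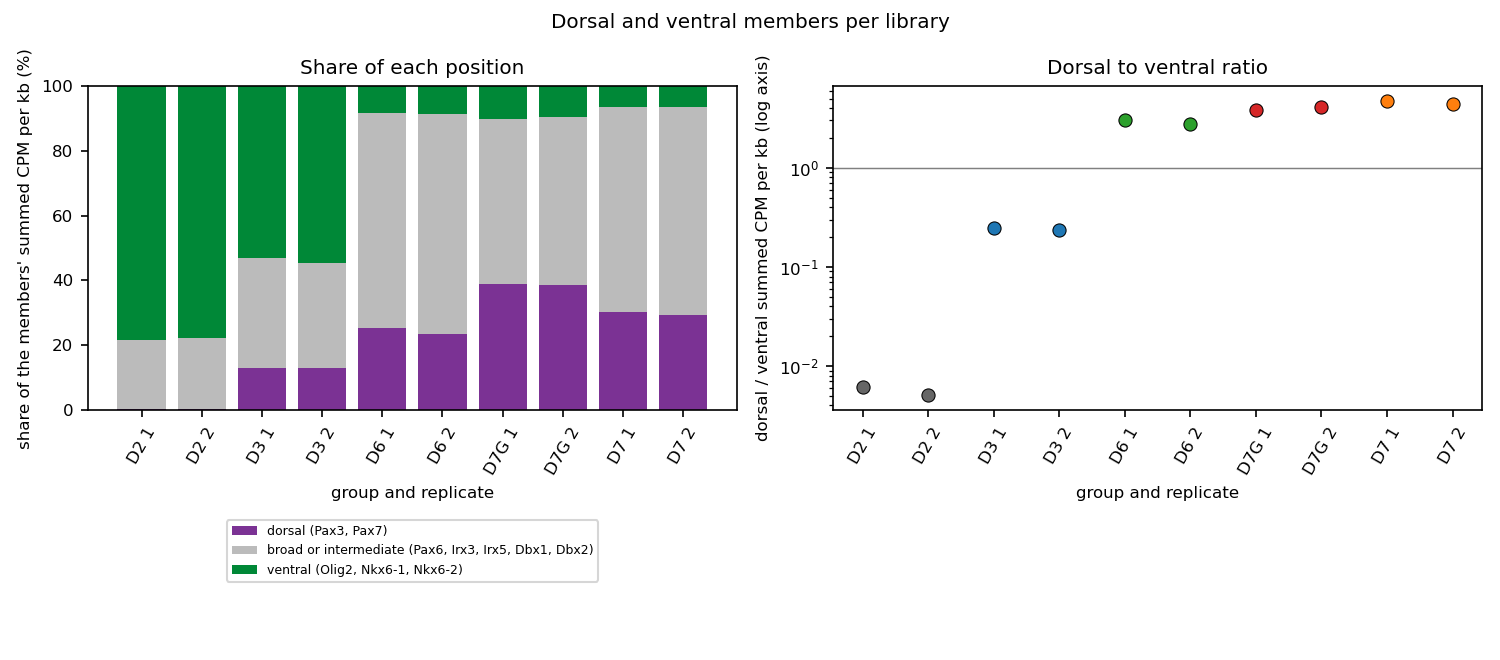
Left, share of the summed CPM per kilobase of the 10 genes that falls to dorsal, broad or intermediate, and ventral genes in each library. Right, ratio of the dorsal to the ventral sum on a log axis, which passes 1 between D3 (0.244 and 0.238) and D6 (3.06 and 2.73).

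The order of the genes by level changed with the course. On D2 Olig2 led with 22.0 ± 1.14 CPM per kilobase, ahead of Irx3 (2.56 ± 0.21), Pax6 (1.86 ± 0.02) and Irx5 (1.56 ± 0.05), with Nkx6-2 (0.887 ± 0.082) and Dbx2 (0.304 ± 0.068) next. Nkx6-1 and Pax3 followed with overlapping libraries, and Dbx1 and Pax7 were last. In D7G, Irx3 (11.9 ± 0.55) and Pax3 (10.1 ± 0.0047) came first, and Irx5 (5.23 ± 0.25) stood above Pax7 (4.18 ± 0.42), the reverse of D7 and the same order as on D6 (Irx5 6.08 ± 0.48, Pax7 3.93 ± 0.40). In D7 the order was Irx3 (25.5 ± 1.53), Pax3 (8.82 ± 0.10), Pax7 (7.34 ± 0.27), Irx5 (6.43 ± 0.47), Pax6 (2.42 ± 0.04), Olig2 (1.85 ± 0.05) and Nkx6-1 (1.44 ± 0.28), with Nkx6-2, Dbx1 and Dbx2 below 0.3 (SD, n = 2 each). Neighbours named here did not overlap in their libraries, apart from Nkx6-1 and Pax3 on D2 and Dbx1 and Dbx2 in D7.

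Pairs known to repress each other in the neural tube were compared within libraries. Irx3 over Olig2 was 0.118 and 0.113 on D2, 0.508 and 0.485 on D3, 13.3 and 13.5 on D6, 4.99 and 5.34 in D7G, and 13.4 and 14.1 in D7. The ratio turned over between D3 and D6, and in D7G it was below that of both D6 and D7. Dbx2 over Nkx6-1 was 1.36 and 3.36 on D2, 0.527 and 0.343 on D3, 0.0207 and 0.0162 on D6, 0.0163 and 0.0237 in D7G, and 0.0485 and 0.0371 in D7. Here too the gene that led changed, in this case to the ventral one, on D3. Dbx1 over Nkx6-2 rests on 0 to 13 counts of Dbx1 and was 0.240 and 0.261 on D6, 0.586 and 1.48 in D7G, and 0.203 and 0.829 in D7. Nkx6-2 thus stood above Dbx1 in every library except 1 of D7G. Nkx2-2, the ventral partner of Pax6, had between 1 and 8 counts in every library and was not tested, and Pax6 exceeded it per kilobase in every library.

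**Figure D4:**
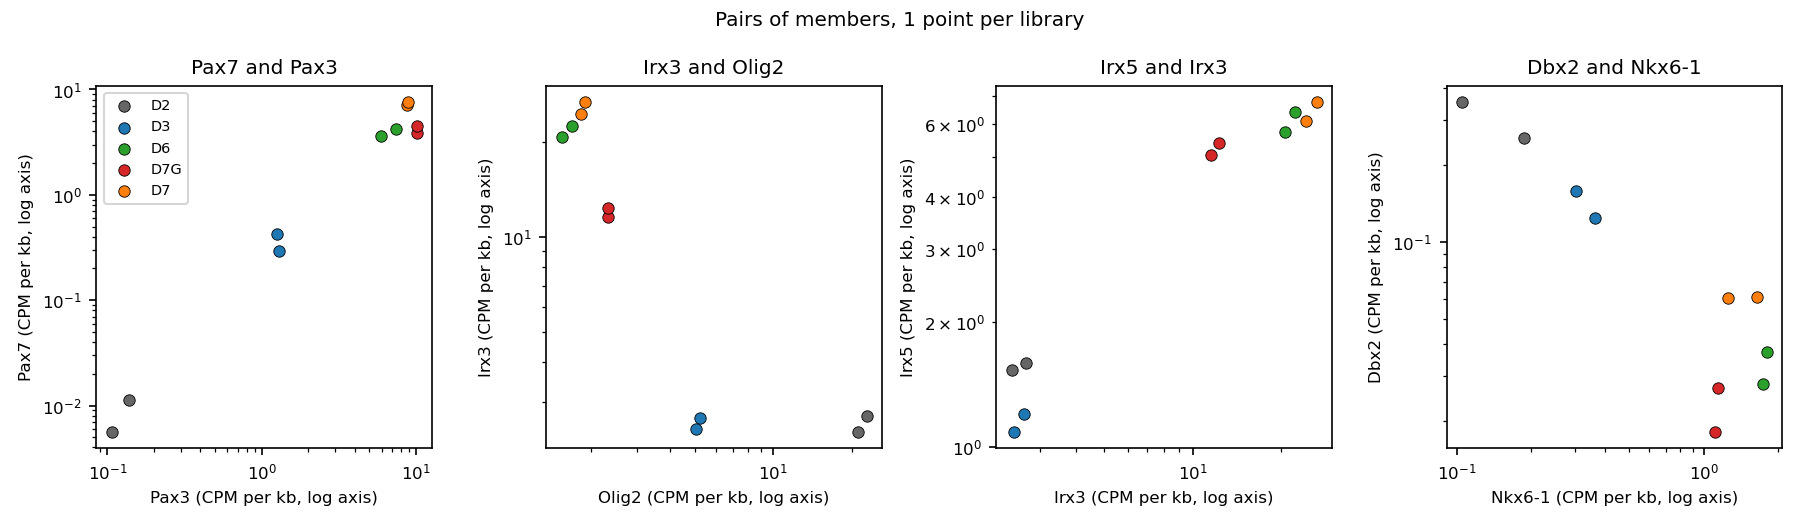
Levels of 4 pairs of genes in CPM per kilobase on log axes, 1 point per library, coloured by group. D7G libraries sit apart from D7 libraries through less Pax7 and less Irx3, and Irx3 and Olig2 occupy opposite corners on D2 and from D6.

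The other transcription factors of the progenitor domains were counted from a list of 22 genes, of which 20 were tested. On D3 against D2, 11 were higher and 6 lower, with the dorsal genes Msx1 (4.78 ± 0.16), Zic1 (4.36 ± 0.12) and Msx3 (4.25 ± 0.28) among the largest rises, and Gsx1, of dorsal interneuron progenitors, lower (-2.65 ± 0.31). On D6 against D3, 8 were higher and 9 lower, and Zic1 (3.41 ± 0.06), the proneural Neurog2 (3.40 ± 0.20), Prdm13 (2.85 ± 0.20) and Msx3 (2.15 ± 0.11) had the largest changes. On D7 against D6, 11 were higher and 1 was lower, with the proneural gene Neurog1 (1.70 ± 0.18) among the larger ones.

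In D7G against D7, 8 of these 20 genes were higher and 4 lower, beside 22.5% and 18.2% of all genes. DESeq2 called 4 and 3, and leaving out D7 replicate 2 left 5 and 3. Olig3, of the most dorsal progenitors, was higher (1.6 ± 0.13, adjusted p = 3.34e-09), with 12.5 ± 1.31 CPM in D7G and 4.10 ± 0.464 in D7. Msx2, a Bmp-responsive homeobox gene, was higher as well (1.46 ± 0.11, 1.13e-09), with 19.4 ± 1.34 CPM in D7G and 7.04 ± 0.392 in D7. Ptf1a (2.51 ± 0.61, 0.00242) and Atoh1 (1.41 ± 0.37, 0.00438) were higher but under 1 CPM in both groups and not called by DESeq2, and Atoh1 was not called without D7 replicate 2. Msx1, by contrast, was lower in D7G (-0.23 ± 0.05, 0.00195). So within the dorsal genes some were higher and others, Pax7 and Msx1 included, lower under Gdf11.

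The Shh pathway was read from 15 genes, 13 of them tested. On D6 against D3, 10 were higher and 0 lower, led by the co-receptor genes Gas1 (2.81 ± 0.07) and Boc (2.55 ± 0.08), and 1 was lower with library totals for scaling. In D7G against D7, 3 were higher and 4 lower, beside 22.5% and 18.2% of all genes, and DESeq2 gave 1 and 4. Fewer were called higher without D7 replicate 2. The pathway's target Gli1 had 21.9 ± 0.754 CPM in D7G and 29.1 ± 1.23 in D7 (-0.41 ± 0.07, adjusted p = 7.72e-05). Boc was lower by the same amount (-0.41 ± 0.06), and the floor plate and endoderm factor Foxa2 was higher (0.71 ± 0.11). The ligand gene Shh itself had 20 and 16 counts in D7G, against 7 and 3 in D7 (1.88 ± 0.46, 0.00289), a call lost by DESeq2 and without D7 replicate 2.

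Roof plate genes gave no common direction, and their counts in D7G against D7 lay near the shares over all genes. Of 8 tested, 2 were higher and 2 lower, beside 22.5% and 18.2% of all genes. Rspo3 (1.17 ± 0.13) was among the higher, and Lmx1a (-1.62 ± 0.44) and Lmx1b (-0.70 ± 0.10) were the lower ones. The Lmx1a call was lost by DESeq2 and without D7G replicate 1, and Wnt1 had no count on D2, D3 and D6.

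Most genes of general neural progenitors were lower in D7G than in D7, in the same libraries as Pax6 and Irx3. Of 8 tested, 6 were lower and 2 higher in D7G than in D7, and the higher count was 0 or 1 in most alternatives. Hes5, a Notch target (-0.91 ± 0.08), Nkx1-2, of the caudal neural plate (-0.68 ± 0.06), Sox1 (-0.68 ± 0.06) and Sox3 (-0.53 ± 0.08) were lower. Against D6, 4 of the 8 genes were higher in D7G, Hes5 included (0.63 ± 0.09), and 3 were lower, beside 30.6% and 22.2% of all genes. The summed level was 722.6 to 736.5 CPM in D7G, against 818.5 to 828.3 CPM in D7. Neuron genes moved the other way: 6 of 8 were higher and 0 lower, and the sum was 274.7 to 283.3 CPM in D7G, against 150.4 to 152.1 CPM in D7, with Dcx at 1.35 ± 0.08 and Tubb3 at 1.13 ± 0.05. On D7 against D6, 7 of 8 neuron genes were higher. The part of a change in the share of progenitors and neurons in the lower Irx3, Pax7 and Pax6 was not tested.

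Factors of the neurons that arise from the domains were also counted. Of 19 tested, 9 were higher and 0 lower in D7G than in D7, beside 22.5% and 18.2% of all genes. DESeq2 called 4 higher, and fewer than 9 were called higher without D7G replicate 2 or D7 replicate 2. Lhx5, an interneuron factor (2.30 ± 0.16), Evx1 (1.91 ± 0.11) and Lhx2 (1.53 ± 0.26) were among the 9. Evx1 is also a caudal epiblast gene, with 21.2 ± 0.644 CPM on D3. In D7, Isl2 (0.195 CPM), Tlx3 (0.540), Lhx1 (0.810) and Lhx2 (0.826) averaged under 1 CPM, and the others of the 9 averaged more. Of the other Pax genes, 5 were tested: Pax9 was lower in D7G (-1.19 ± 0.12) and the call of Pax2 (0.56 ± 0.22, adjusted p = 0.0465) was lost in 12 of 20 alternatives. In D7G against D7 the median log2 change was 0.16 over the other progenitor factors, -0.03 over the Shh pathway, -0.17 over the roof plate genes, 0.49 over the factors of spinal neurons, -0.40 over the neural progenitor genes, -0.49 over the somite genes, 0.57 over the neural crest genes and 0.54 over the neuron genes, beside 0.02 over all genes. Some genes, such as Pax9, Lhx2, Foxa2 and Evx1, sit in more than 1 list.

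The genes most like each member over the 5 group means were named by the root mean square difference of log2 (CPM + 0.5) after centring each gene, among 11600 genes that reached 5 CPM in a group. Pax3 was closest to Msx3 (0.15), the spinal homeobox gene, followed by Hoxc9 and Hoxa9. For Pax7 they were Scube2 (0.35), Hoxd3 and Hoxc4, for Pax6 Btbd17 (0.21), Rgs2 and Hhip, and for Irx3 Metrn (0.17), Fam181a and Pax9. Irx5 had Fabp5 (0.08), Tppp3 and Fat3 as its nearest, and Nkx6-1 had Adamts1 (0.10), Maml3 and Tshz3. The profile of Olig2 was nearest to those of Fam57b (0.13), Pdzd4 and Olig1 (0.17), its neighbour on the chromosome, and that of Nkx6-2 to those of Gna15 (0.12), Shank2 and Ecscr. For Dbx2, at about 1 CPM or less, the added 0.5 flattens the profile, and Mnd1, Wdr31 and Tor3a came out nearest. Within the set, the closest profiles were Irx5 and Nkx6-1 (0.37), Dbx2 and Nkx6-2 (0.43), Pax3 and Pax7 (0.46) and Irx3 and Irx5 (0.48), and the furthest apart were Pax7 and Olig2 (3.70). The added 0.5 flattens Nkx6-2 from D6 as well, and on D3 against D2 the log2 change was 0.54 for Nkx6-2 and -1.09 for Dbx2.

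The authors' deposited table of fold changes against D2 listed 8 of the 10 genes and left out Dbx1 and Dbx2. In the authors' deposited table, the log2 change against D2 was 6.31 for Pax3 in D7G and 6.13 in D7, 8.54 for Pax7 in D7G and 9.37 in D7, and 2.18 for Irx3 in D7G and 3.29 in D7. For Olig2 the authors' deposited table gave -3.29 in D7G and -3.60 in D7.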

How the data were processed

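RNA-seq of 10 libraries, 2 in each of 5 groups, was analysed from the tables that the authors deposited. The main table held raw counts per gene symbol, with position, strand and merged exon length, and a second deposited table held counts per Ensembl gene. One more deposited table, used for quotation only, held the authors' log2 fold changes against D2 with false discovery rates, a form of adjusted p-value. The build was mm10, and the submitters' processing notes name limma, featureCounts 1.6.3, HISAT2 2.1.0 and STAR. The role of each, the counting options and the use of strand are not given in the sources used here.

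Counts were filtered with filterByExpr (minimum count 10, minimum total 15), which kept 18818 genes, scaled by TMM, and tested with edgeR 4.0.16 (quasi-likelihood, all 10 libraries in 1 fit, 5 residual degrees of freedom, R 4.3.3). P-values were adjusted by Benjamini-Hochberg over all tested genes, and a call is an adjusted p under 0.05. The SE of a log2 change was derived from that test, as its absolute value divided by the square root of the F statistic. It was not estimated separately. CPM is computed here from the deposited counts with TMM-scaled library sizes, and CPM per kilobase divides it by the deposited exon length. Ratios of low counts have exact 95% intervals that cover counting error only, and the mean chi-square per gene between replicates was 1.95 (D2) to 4.25 (D7G), above sampling noise in every group. Alternatives were DESeq2 1.42.0, limma-voom (limma 3.58.1), other scalings and filters, the second table, the 2 groups alone, a replicate block and each library left out.

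The 10 genes and the gene lists (other progenitor factors, Shh pathway, roof plate, spinal neurons, other Irx and Pax genes, neural progenitors, somite, neural crest, forebrain and midbrain, neurons, caudal epiblast, endoderm) were chosen with earlier results of these data known. From each list, up to 4 called genes with the largest change in a comparison, and the list's first gene, were open to naming. A gene named outside that rule (Foxd3, Wnt1, Sox9, Snai2, Tfap2a, Rax, Six3, Nkx2-2, Sox2, and Irx3os and Inpp5a for their overlaps) was chosen after its values were seen. A few genes that the rule would name are not reported here.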

Additional observations from a re-analysis of the deposited data

How the results depend on the processing

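The 45 log2 changes of the members were recomputed under 20 alternatives, which gave 892 values, and 847 of these kept both direction and side of the threshold. Of the 45 changes, 30 did so in every alternative tried, and the other 15 changed in at least 1. In 10 of the alternatives 1 library was left out, often of a group outside the comparison, so many of the values could hardly change. The reversals all concern values that were not called: Irx3 on D3 against D2 (-0.013 with upper-quartile factors, -0.036 in the second count table, and -0.079 to 0.087 with 1 library left out), Irx5 on D7 against D6 (-0.028 to 0.16 with 1 library left out), Nkx6-2 in D7G against D7 (-0.82 to 0.034 likewise) and Pax7 in D7G against D6 (-0.070 to 0.20 likewise). Calls lost or gained stand beside each gene, and the cause was not tested.

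Leaving out 1 library at a time, which leaves a group with 1 library that is assumed to vary like the others, members called numbered 5 to 8 on D3 against D2 (5 without D2 replicate 2 or D3 replicate 2), 9 to 10 on D6 against D3, 3 to 4 on D7 against D6, 3 to 6 in D7G against D7 (3 without D7 replicate 2) and 5 to 6 in D7G against D6. The 10 called on D6 against D3 take in Dbx1, which was not tested in the main fit. The number of all genes called also changed when a library was left out, so these counts of members are not read alone. Genes called stayed within 1.5 times in every alternative.

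Deviations of same-numbered libraries correlated between -0.0152 and 0.049, which gives no sign of pairing by replicate number. These values cannot exclude pairing, and the labels do not say whether the samples were paired. With the replicate block, genes called were 11091, 12457, 6968, 7807 and 10039 in the order D3 against D2, D6 against D3, D7 against D6, D7G against D7 and D7G against D6, and members called were 8, 9, 4, 6 and 6, as without it. With 2 libraries a group and under 40 counts of Dbx1 and Dbx2 per library, depth limits what can be said of those genes.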
